A study of Mus musculus with 30 samples.

Results

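The data describe 10 genes of the neuromuscular junction in C2C12 myotubes, the multinucleated muscle cells that form from a mouse myoblast line in culture. They were chosen by name: Chrna1, Chrnb1, Chrnd, Chrne and Chrng encode the subunits of the muscle acetylcholine receptor, and Agrn, Lrp4, Musk, Dok7 and Rapsn encode the proteins that gather this receptor at the synapse. The count table held 55487 genes, of which 15907 had enough reads to be tested, and all 10 were among these. RNA was sequenced from 5 groups of wild-type myotubes with 6 libraries each, and every group had differentiated for 4 days in horse serum before 4 further days of treatment. The control group stayed in 2% horse serum (2% HS). The other groups received the same low-glucose medium without serum (serum deprivation, SD), SD with 100 nM metformin (MET), SD with 500 nM leucine (LEU), or SD with both (MET+LEU). The comparisons ask what loss of serum did to these transcripts and whether MET, LEU or MET+LEU altered them during SD. C2C12 is a single line grown without nerve, and the labels do not say whether replicates were separate cultures, so p-values measure only the spread between these libraries. In whole-culture RNA, fewer cells of a type and less RNA per cell cannot be told apart.

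At the junction the motor nerve releases acetylcholine onto a dense patch of receptors in the muscle membrane. The receptor of embryonic and uninnervated muscle carries the gamma subunit, encoded by Chrng, which is replaced by the epsilon subunit of Chrne as fibres mature. Agrin binds Lrp4 on the muscle, Lrp4 activates the receptor kinase Musk together with its cytoplasmic adaptor Dok7, and Rapsn, which encodes rapsyn, anchors the receptors in clusters. Nerve-derived agrin carries a splice insert that gives it clustering activity. Gene counts do not separate it from the form that muscle makes, so Agrn stands here for all its transcripts.

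The genes lie on 5 chromosomes of the GRCm38 genome, with positions from GENCODE M21. Chrnd (ENSMUSG00000026251, chr1:87190607-87200070) and Chrng (ENSMUSG00000026253, chr1:87204657-87212694) are neighbours on the plus strand. Chrna1 (ENSMUSG00000027107, chr2:73563215-73580338), Rapsn (ENSMUSG00000002104, chr2:91035620-91045729) and Lrp4 (ENSMUSG00000027253, chr2:91457511-91513779) share chromosome 2. Chrnb1 (ENSMUSG00000041189, chr11:69784036-69795943) and Chrne (ENSMUSG00000014609, chr11:70614883-70619216) lie on the minus strand of chromosome 11. Musk (ENSMUSG00000057280, chr4:58285960-58374303) and Agrn (ENSMUSG00000041936, chr4:156165290-156197488) lie on chromosome 4 and Dok7 (ENSMUSG00000044716, chr5:35056766-35087839) on chromosome 5. Rapsn shares 4 exonic bases with the antisense transcript Gm13778, and Chrne overlaps 4930544D05Rik on the opposite strand with 0 shared exonic bases.

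Transcription of the receptor genes is classically tied to E-boxes, the CANNTG sites bound by myogenic factors such as MyoD and myogenin, and to the N-box CCGGAA, which is bound by GABP in genes expressed under the nerve. RefSeq promoter entries (GRCm38.p6) were matched for 7 of the genes, and 4 are shown because they stand for the abundant alpha and gamma subunits, the scarce epsilon subunit and the kinase. Each run gives the upstream bases nearest to the annotated exons, 5′ to 3′ on the gene's strand, with E-boxes and N-boxes in capitals. Chrna1 is shown at chr2:73580339-73580498 (minus strand), Chrng at chr1:87205650-87205809 (plus), Chrne at chr11:70619217-70619376 (minus) and Musk at chr4:58285800-58285959 (plus).
Chrna1: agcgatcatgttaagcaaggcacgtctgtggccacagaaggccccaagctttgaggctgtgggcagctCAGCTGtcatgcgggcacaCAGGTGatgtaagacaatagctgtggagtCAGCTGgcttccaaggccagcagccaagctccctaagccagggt
Chrng: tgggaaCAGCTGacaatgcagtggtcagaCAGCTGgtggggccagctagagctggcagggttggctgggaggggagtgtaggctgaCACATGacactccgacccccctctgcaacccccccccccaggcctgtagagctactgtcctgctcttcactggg
Chrne: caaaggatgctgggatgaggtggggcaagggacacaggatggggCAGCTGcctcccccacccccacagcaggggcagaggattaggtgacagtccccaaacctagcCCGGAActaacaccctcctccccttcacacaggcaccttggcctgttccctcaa
Musk: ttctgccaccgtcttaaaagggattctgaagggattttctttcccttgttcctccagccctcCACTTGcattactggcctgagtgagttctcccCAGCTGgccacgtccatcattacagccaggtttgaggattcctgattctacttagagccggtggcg

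Within the 250 bases before the RefSeq start, Chrna1, Chrnb1, Chrng and Musk each held 3 E-boxes. CANNTG reads the same on both strands, and 66.2% of 32851 promoter windows of this length held at least 1 and 12.2% at least 3. The letters CAGCTG, a form of the E-box, occurred 2 times in Chrna1 and in Chrng and 1 time in Chrne and in Musk, where 13% of all windows held at least 1 and 1.26% at least 2. Chrne was the only one of the 7 genes with an N-box, searched on both strands, which 12% of all windows held. Dok7 and Agrn have 2 RefSeq starts each, with at most 1 E-box per window. The RefSeq start of Chrng lies 1154 bases inside the GENCODE gene. These matches describe letters and were not tested as binding sites.

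Libraries held between 12784960 and 19604103 counts, and the 10 genes had between 121 counts (Chrne) and 18222 counts (Chrna1) in a library, so none was near the limit that a count of 0 allows (3 counts, or at most 0.235 CPM). CPM are counts per 1000000 of the library, scaled between libraries by the trimmed mean of M-values (TMM). One library stood apart before any comparison. In MET+LEU replicate 6, ribosomal RNA made up 5.85% (nuclear) and 7.64% (mitochondrial) of the counts, where no other library passed 1.96% and 0.760%. It was the lowest of its group for Chrne, Chrng, Rapsn, Dok7 and Agrn and the highest for Chrna1 and Chrnb1. SD replicate 1, the deepest SD library with 18275801 counts, was the highest of its group for 8 of the 10 genes, and LEU replicate 3 was the highest of its group for 7.

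Per length of exon, Chrna1 was the most abundant of the 10 transcripts. Length here is the union of a gene's annotated exons, which can be longer than the transcripts present, and the per-length ranks depend on it. Over all 30 libraries it averaged 212 ± 10.4 CPM per kilobase of exon (CPM/kb, mean ± SD), which placed it at percentile 99.3 of the tested genes. Chrng followed with 88.6 ± 5.17 CPM/kb, Chrnd with 71.8 ± 4.83 and Chrnb1 with 55.5 ± 4.63. Chrne was the scarce subunit, with 8.98 ± 1.33 CPM/kb. All 5 subunit transcripts of the receptor were counted in every library.

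Among the clustering genes, per-length levels were 47.6 ± 6.49 CPM/kb for Rapsn, 46.6 ± 3.88 for Musk, 30.2 ± 3.22 for Lrp4, 12.9 ± 1.41 for Dok7 and 6.71 ± 0.513 for Agrn. Rapsn and Musk were thus close in per-length level, and Agrn was the lowest of the 10 on this measure. The ratio of Chrng to Chrne, taken per length in each library, was 9.0 ± 1.25 in 2% HS (7.62 to 11.1) and 10.9 ± 1.26 in SD (9.28 to 12.6). It was 10.1 ± 1.13 with MET, 10.0 ± 1.47 with LEU and 10.2 ± 1.33 with MET+LEU. The groups overlapped in this ratio, which was well above 1 in every library. As a share of the summed per-length level of the 5 subunits, Chrna1 made up 46.1% ± 1.03 in 2% HS and 48.8% ± 0.902 in SD, and Chrnb1 14.3% ± 0.189 and 12.2% ± 0.485. Neither share overlapped between these groups' libraries, whereas the shares of Chrnd, Chrne and Chrng did. The 5 shares of a library add up to the whole, so they depend on each other, and they were not tested.

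**Figure D1:**
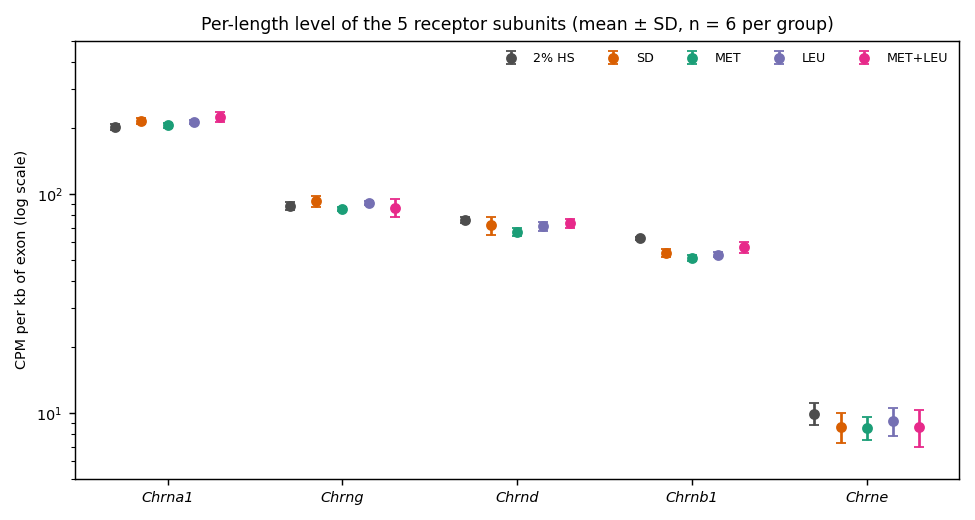
Level of each receptor subunit per kilobase of exon on a log axis (TMM-scaled CPM/kb, points are means and bars SD of 6 libraries, colours are the 5 groups). Chrna1 lies highest in every group, Chrng, Chrnd and Chrnb1 lie between, and Chrne lies lowest, with group means from 8.55 to 9.91 CPM/kb.

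With SD vs. 2% HS, the receptor subunits did not move together. Chrna1, which encodes the subunit that carries the ligand-binding sites, rose slightly, Chrnb1 fell, and Chrnd, Chrne and Chrng did not pass the test. Of the 10 genes, 5 passed an adjusted p of 0.05, where 27.8% of all tested genes did. One was higher (13.9% of all genes) and 4 were lower (13.9% of all genes). The median log2 fold change over the 10 was -0.13, beside 0.0028 over all genes tested.

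Chrna1 ranged from 839 through a median of 898 to 915 CPM in 2% HS and from 904 through 944 to 995 CPM in SD. The groups overlapped, although all 6 SD libraries lay above the 2% HS mean. The difference was 0.093 on the log2 scale (standard error 0.033, adjusted p = 0.0299), a rise of 6.67%. This call rested on single libraries. It was lost without 2% HS replicate 1, 5 or 6 (adjusted p = 0.0643, 0.0940 and 0.0505) and without SD replicate 1 (adjusted p = 0.0780), and also under upper-quartile scaling (adjusted p = 0.0503) and without the filter on low counts (adjusted p = 0.0724).

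Chrnb1, which encodes the beta subunit, ranged from 156 through 158 to 164 CPM in 2% HS and from 129 through 135 to 144 CPM in SD. Every SD library lay below every control library. Chrnb1 fell by 14.3% (log2 fold change -0.22, standard error 0.035, adjusted p = 1.8e-06). Absence of overlap was found for 13.6% of all genes tested and for 4 of these 10.

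The other subunits changed less than their spread allowed to resolve. On the log2 scale the difference was -0.080 for Chrnd (95% confidence interval -0.17 to 0.0071, adjusted p = 0.170), -0.19 for Chrne (-0.42 to 0.035, adjusted p = 0.212) and 0.067 for Chrng (-0.019 to 0.15, adjusted p = 0.253). Chrnd turned on SD replicate 1, which at 272 CPM lay above all 6 control libraries. Without it the log2 fold change was -0.13 (adjusted p = 0.0123). limma-voom, which weights libraries by quality, also called Chrnd with all libraries kept (-0.11, adjusted p = 0.0385). Chrne had few counts, 121 to 337 in a library, and its interval is the widest of the 5.

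**Figure D2:**
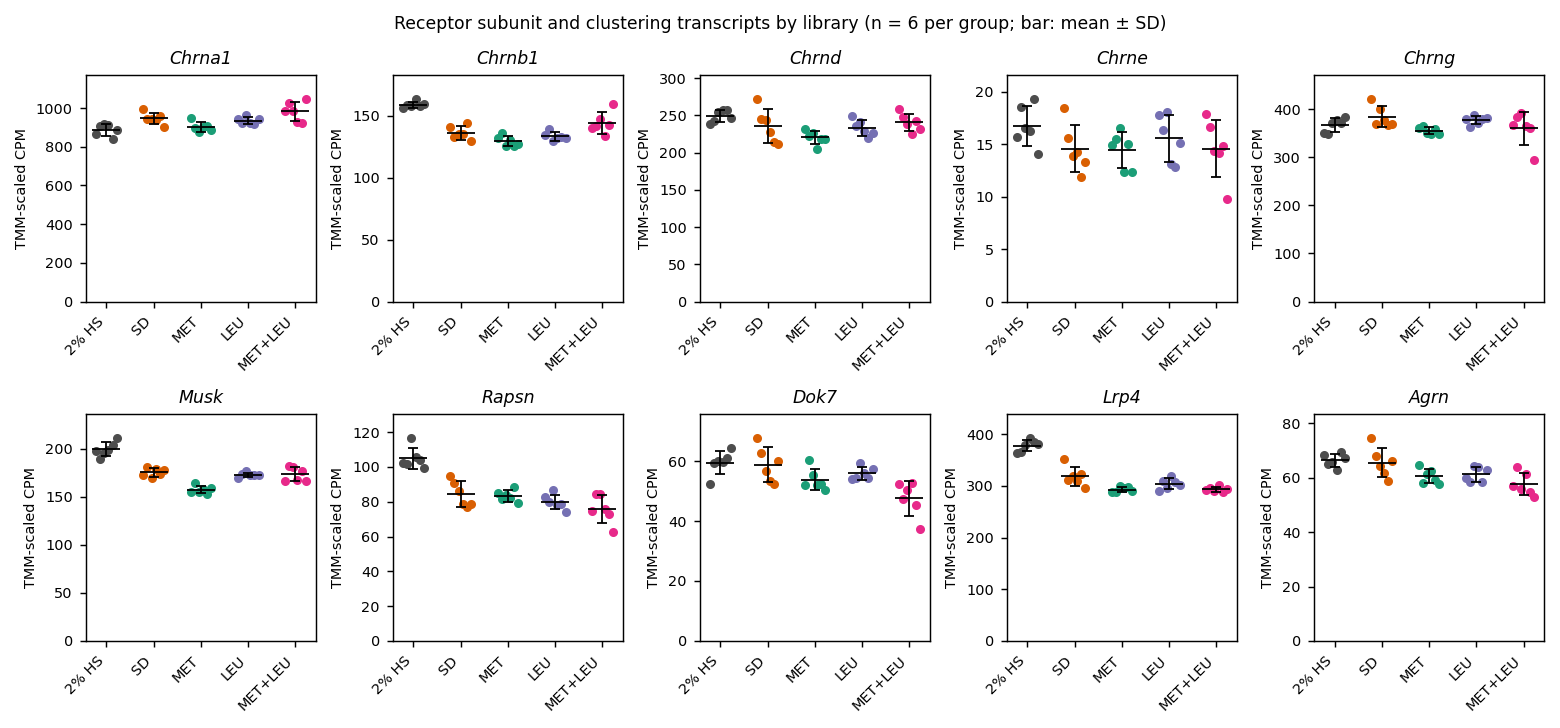
TMM-scaled CPM of each of the 10 genes in each of the 30 libraries (points), with the mean and SD of 6 libraries per group (bars). The SD points of Chrnb1, Musk, Rapsn and Lrp4 all lie below the 2% HS points, and the 6 MET points of Musk, from 154 to 164 CPM, lie below those of every other group.

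In the clustering pathway, SD lowered Lrp4, Musk and Rapsn, and Agrn and Dok7 did not pass the test. Lrp4, the agrin receptor, ranged from 364 through 380 to 393 CPM in 2% HS and from 296 through 315 to 351 CPM in SD. Rapsn, the clustering scaffold, ranged from 99.5 through 103 to 117 CPM in 2% HS and from 77.0 through 82.6 to 94.6 CPM in SD. Musk ranged from 189 through 199 to 211 CPM in 2% HS and from 169 through 176 to 181 CPM in SD. For all 3 the SD libraries lay wholly below the controls.

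The falls were 19.5% for Rapsn (log2 fold change -0.31, adjusted p = 1.2e-05), 15.7% for Lrp4 (-0.25, adjusted p = 3.9e-08) and 12% for Musk (-0.18, adjusted p = 8.1e-06). Like that of Chrnb1, these 3 calls held in each of the 30 fits that left out 1 library and in all 7 other settings. Without MET+LEU replicate 6 the same 5 genes were called. Agrn (log2 fold change -0.016, 95% confidence interval -0.11 to 0.080) and Dok7 (-0.012, -0.14 to 0.11) had intervals that exclude falls as large as that of Rapsn. Without SD replicate 1 both were at -0.060.

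In MET vs. SD only Musk passed the test among the 10 (log2 fold change -0.16, standard error 0.032, adjusted p = 0.0192), a fall of 10.3%. That is 1 of 10 genes, beside 0.157% of all tested genes in either direction, 0.0817% lower and 0.0754% higher. Musk in MET ranged from 154 through 157 to 164 CPM, below all 6 SD libraries and also below every library in 2% HS, LEU and MET+LEU. The adjusted p depended on which libraries were in the fit. It was 0.0870 without SD replicate 2, 0.0586, 0.0754, 0.0622 and 0.0653 without MET replicate 1, 3, 4 and 5, and 0.00292 without MET+LEU replicate 6. It was 0.0559 without the filter on low counts and 0.0660 in a fit of MET and SD alone. The log2 fold change itself stayed between -0.15 and -0.16 in these fits.

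The remaining 9 genes were also lower in MET than in SD by their fitted values, and 8 of the 10 had an unadjusted p under 0.05, but only Musk passed the adjusted threshold. The share of all tested genes at this unadjusted threshold was not taken, so the 8 cannot be set against a background. The median log2 fold change of the 10 was -0.11, beside -0.0047 over all tested genes. These counts rested on SD replicate 1. Without it, 2 genes (Musk and Lrp4) had an unadjusted p under 0.05, the median was -0.066, and Chrne (0.066) and Rapsn (0.019) turned positive, as they did under limma-voom (0.0079 and 0.0092). Lrp4 came nearest, from 288 through 293 to 300 CPM in MET (log2 fold change -0.12, adjusted p = 0.107). It passed without MET+LEU replicate 6 (adjusted p = 0.0443), without SD replicate 6 (adjusted p = 0.0400) and in DESeq2's Wald test (adjusted p = 0.0319). Chrng, the gamma subunit, ranged from 348 through 354 to 365 CPM in MET and lay wholly below its SD libraries (368 through 373 to 421 CPM), with a log2 fold change of -0.11 that missed the threshold (adjusted p = 0.325). Absence of overlap, seen for Musk and Chrng, occurred in 0.717% of all genes.

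LEU vs. SD changed 0 of the 10 by edgeR's quasi-likelihood test, where 0.553% of all genes passed, and 0 by DESeq2 and limma-voom. At an unadjusted p under 0.05, 2 genes remained, Lrp4 (log2 fold change -0.067, 95% confidence interval -0.13 to -0.0012) and Agrn (-0.099, -0.20 to -0.0020). No share of all genes at that threshold was taken. Without SD replicate 1 there were 0, with Lrp4 at -0.035 and Agrn at -0.055. For Musk the interval ran from -0.085 to 0.043 and for Chrna1 from -0.085 to 0.049, so changes of the size that SD gave in these 2 genes lie outside them. Chrne had the widest interval, from -0.14 to 0.32.

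**Figure D3:**
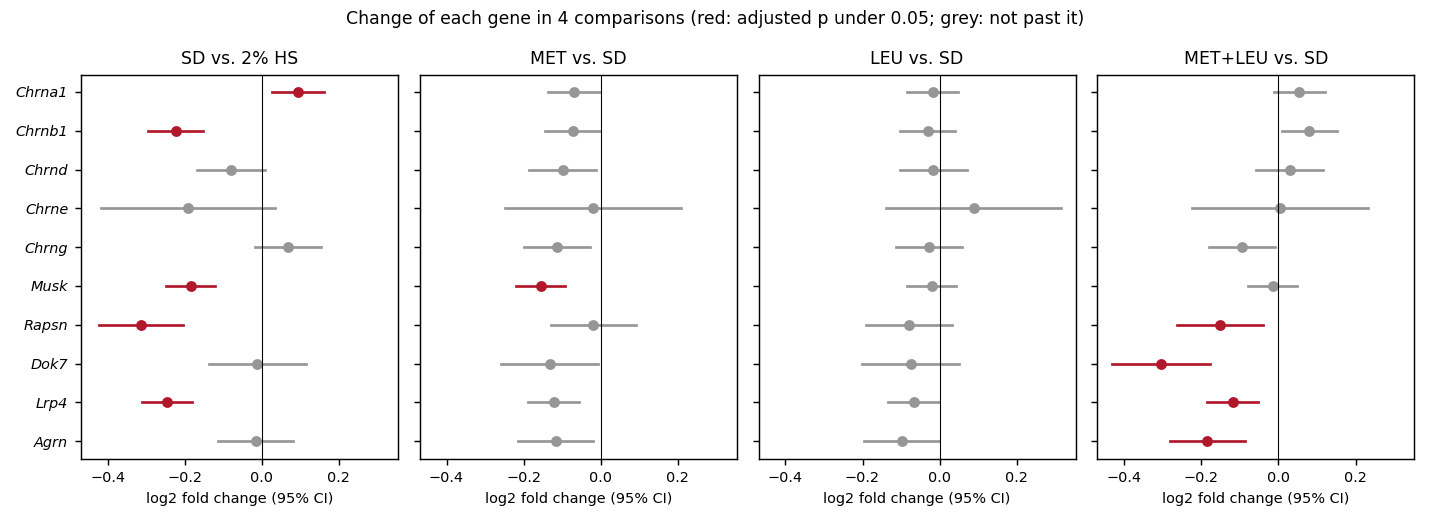
Log2 fold change of each gene with its 95% confidence interval in 4 comparisons, with red for an adjusted p under 0.05 and grey for the others. SD vs. 2% HS has 5 red points, MET vs. SD has Musk, LEU vs. SD has none, and MET+LEU vs. SD has Rapsn, Dok7, Lrp4 and Agrn, all to the left of 0.

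MET+LEU vs. SD lowered 4 of the 5 clustering genes, and no receptor subunit passed the test. Dok7, Agrn, Lrp4 and Rapsn fell, 4 of 10 genes, where 18.4% of all genes passed the test and 7.80% were lower. No gene rose in edgeR's test (10.6% of all genes), and at an unadjusted p under 0.05 Chrnb1 alone was higher. DESeq2 and limma-voom also called none higher. The median log2 fold change over the 10 was -0.054, beside -0.0050 over all genes. Without MET+LEU replicate 6 it was -0.028, and Chrnb1 then had an unadjusted p of 0.185. MET vs. SD and MET+LEU vs. SD share their 6 SD libraries, as does LEU vs. SD.

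Dok7, the adaptor that drives Musk activation from inside the cell, changed most. It ranged from 52.4 through 58.4 to 67.6 CPM in SD and from 37.2 through 48.9 to 52.5 CPM in MET+LEU. The groups met only at their edges, and all 6 MET+LEU libraries lay below the SD mean. The fall was 19% (log2 fold change -0.30, standard error 0.063, adjusted p = 5.7e-04), and it stayed past the threshold in every fit tried. The lowest value was that of MET+LEU replicate 6, without which the log2 fold change was -0.25 (adjusted p = 6.9e-04).

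Agrn, the ligand, ranged from 58.9 through 65.2 to 74.5 CPM in SD and from 53.0 through 56.4 to 63.8 CPM in MET+LEU. It fell by 12.1% (log2 fold change -0.19, adjusted p = 0.00505), and by -0.17 on the log2 scale without MET+LEU replicate 6 (adjusted p = 0.0115). Lrp4 was at 288 through 293 to 302 CPM in MET+LEU and fell by 7.93% from SD (log2 fold change -0.12, adjusted p = 0.00763, and 0.00632 without MET+LEU replicate 6). Both groups overlapped in these 2 genes. In a fit of SD and MET+LEU alone neither passed (adjusted p = 0.0555 for Agrn and 0.0756 for Lrp4). With MET vs. SD, Lrp4 had the same log2 fold change of -0.12. Its unadjusted p was 5.6e-04 there and 7.0e-04 with MET+LEU vs. SD. The adjusted p with MET was 0.107, in a comparison where 0.157% of all genes passed.

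Rapsn gave the weakest of the 4 calls. It ranged from 62.7 through 75.4 to 84.7 CPM in MET+LEU, with 2 of 6 libraries above the SD mean. The difference on the log2 scale was -0.15, with an adjusted p of 0.0474. Without MET+LEU replicate 6, the lowest library, it was -0.11 (adjusted p = 0.129), and without SD replicate 1, the highest of its group, it was -0.12 (adjusted p = 0.130). Leaving out any of 9 libraries ended the call. The others were SD replicates 2 and 3 (adjusted p = 0.103 and 0.0636), MET+LEU replicates 1, 4 and 5 (adjusted p = 0.0607, 0.0504 and 0.0705), 2% HS replicate 5 (adjusted p = 0.0541) and MET replicate 4 (adjusted p = 0.0544). limma-voom gave an adjusted p of 0.215.

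Musk did not follow the other clustering genes with MET+LEU. It ranged from 167 through 173 to 182 CPM, and its log2 fold change vs. SD was -0.015 (95% confidence interval -0.079 to 0.049). Among the subunits, Chrnb1 differed by 0.080 on the log2 scale (95% confidence interval 0.0090 to 0.15, adjusted p = 0.108) and Chrna1 by 0.055 (-0.012 to 0.12, adjusted p = 0.269). Chrng stood at -0.094 (-0.18 to -0.0080, adjusted p = 0.120), and passed the test only without MET+LEU replicate 3 (-0.12, adjusted p = 0.0470). Chrnd and Chrne lay within 0.029 of no change, with intervals from -0.058 to 0.12 and from -0.22 to 0.23. Without MET+LEU replicate 6 the differences were 0.045 for Chrnb1, 0.031 for Chrna1, -0.046 for Chrng, 0.035 for Chrnd and 0.083 for Chrne. Without SD replicate 1, Chrnd was at 0.067 and Chrne at 0.080.

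Compared with 2% HS, MET+LEU left 7 of the 10 genes changed, where 42.3% of all genes were. Higher was Chrna1 (22.1% of all genes), and lower were Chrnb1, Musk, Rapsn, Dok7, Lrp4 and Agrn (20.3% of all genes). Both comparisons with 2% HS share its 6 libraries. Chrna1 rose by 10.8% (log2 fold change 0.15, adjusted p = 3.0e-04). It ranged from 839 to 915 CPM in 2% HS and from 924 to 1048 CPM in MET+LEU. Rapsn had the widest difference, a log2 fold change of -0.46 (adjusted p = 2.6e-09), followed by Lrp4 at -0.37 (adjusted p = 7.0e-13). Without MET+LEU replicate 6 the same 7 genes passed, with Rapsn at -0.43 and Dok7 at -0.27. The call count was 7 in each of the 30 fits that left out 1 library.

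In the direct comparisons of MET+LEU with each agent, Musk passed the test vs. MET and Dok7 vs. LEU. Dok7 was also lower vs. MET (log2 fold change -0.17) but missed the threshold there (adjusted p = 0.0817). With all libraries, Lrp4, Agrn and Rapsn passed neither comparison. Lrp4 was at 0.0023 vs. MET and -0.052 vs. LEU (adjusted p = 0.980 and 0.371). Agrn was at -0.068 and -0.086 (adjusted p = 0.427 and 0.304), and Rapsn at -0.13 and -0.072 (adjusted p = 0.129 and 0.479). Vs. MET, 3 of 10 genes were higher with MET+LEU (8.69% of all genes passed in either direction, 5.54% higher and 3.15% lower). These were Musk (log2 fold change 0.14, adjusted p = 0.00393), Chrnb1 (0.15, adjusted p = 0.00496) and Chrna1 (0.12, adjusted p = 0.0138). Musk was the gene without overlap between the groups, as were 3.77% of all genes. Without MET+LEU replicate 6, Musk stayed at 0.14 (adjusted p = 0.00314) and Chrnb1 at 0.11 (adjusted p = 0.0322), and Chrna1 at 0.098 missed the threshold (adjusted p = 0.0562). Chrna1 also missed it without MET replicate 3 (adjusted p = 0.0545), without the filter on low counts (adjusted p = 0.0707) and in a fit of these 2 groups alone (adjusted p = 0.0698). With SD replicate 1 left out, Chrnd (0.12, adjusted p = 0.0391) and Dok7 (-0.18, adjusted p = 0.0456) were called as well. Dok7 also passed without MET+LEU replicate 1 or 4 (adjusted p = 0.0386 and 0.0345), and Rapsn without MET+LEU replicate 2 (-0.17, adjusted p = 0.0398).

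Vs. LEU, Dok7 was lower with MET+LEU (log2 fold change -0.23, adjusted p = 0.0235), with all 6 libraries at or under 52.5 CPM and all 6 LEU libraries at 54.0 CPM or more. Chrnb1 was higher (0.11, adjusted p = 0.0481). These were 2 of 10 genes, where 6.28% of all genes passed, 4.61% higher and 1.67% lower, and 3.60% had no overlap. Dok7 missed the threshold without MET+LEU replicate 6 (-0.18, adjusted p = 0.0520) and without LEU replicate 3 (-0.22, adjusted p = 0.0618). It also missed it in a fit of MET+LEU and LEU alone (-0.24, adjusted p = 0.0523). Chrnb1 kept its call in 1 of the 30 fits that left out 1 library and in 1 of 7 other settings.

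A test of whether MET and LEU together differed from the sum of their separate changes (an interaction term) called 0 of the 10 genes and 0.0503% of all genes in edgeR, and 0 of the 10 in DESeq2 and limma-voom. At an unadjusted p under 0.05 it gave 4, namely Chrnb1 (0.18, 95% confidence interval 0.083 to 0.28), Musk (0.16, 0.071 to 0.25), Chrnd (0.14, 0.020 to 0.27) and Chrna1 (0.14, 0.048 to 0.24). Their adjusted p lay between 0.249 and 0.466. For the unadjusted threshold the share of all genes was not taken, so the 4 have no background beside them. Without SD replicate 1 the value for Chrnd was 0.086, with an unadjusted p of 0.122, and 3 genes were left. Dok7, which fell most with MET+LEU, had an interaction of -0.098 with an interval from -0.28 to 0.082, so its fall was not shown to exceed the sum. The value was -0.15 without SD replicate 1 and -0.050 without MET+LEU replicate 6.

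Ordered by mean level over the 5 groups, 8 of the 10 genes were highest in 2% HS. For Musk, Rapsn and Lrp4 the step from 2% HS to SD, the next group, passed the test, and no later neighbours in the order differed. The step from LEU to MET in Musk (173 to 158 CPM, adjusted p = 0.0747) and from MET to MET+LEU in Dok7 (53.7 to 47.6 CPM, adjusted p = 0.0817) came nearest. For Chrnb1 the order ran 2% HS, MET+LEU, SD, LEU, MET, and the gap between 2% HS and MET+LEU (159 ± 2.44 and 144 ± 8.81 CPM) passed (adjusted p = 9.6e-04). Chrna1 ran the other way, with MET+LEU highest at 984 ± 50.0 CPM and 2% HS lowest at 888 ± 30.3, and no step between neighbours passed. Nor did any step pass for Chrnd, Chrne, Chrng, Dok7 and Agrn. Chrng was highest in SD at 384 ± 21.9 CPM and lowest in MET at 355 ± 7.5.

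Genes that act with these at the synapse were described in lists, each by its count and its median. Of all tested genes, 13.9% rose and 13.9% fell with SD vs. 2% HS. With MET+LEU vs. SD, 10.6% rose and 7.80% fell. The list and marker counts below stand beside these shares and were not tested against them. In the synaptic matrix and membrane list, 11 of 20 genes tested fell and 2 rose with SD vs. 2% HS, with a median log2 fold change of -0.14. Scn4a, the sodium channel that carries the muscle action potential, went from 79.1 ± 3.33 to 48.8 ± 3.65 CPM (-0.69, adjusted p = 3.1e-15). Nid2, a basement membrane nidogen, went from 242 ± 9.80 to 158 ± 9.44 CPM (-0.62, adjusted p = 2.8e-19), and Dag1, which encodes dystroglycan, from 1491 ± 60.4 to 1071 ± 36.6 CPM (-0.48, adjusted p = 2.5e-15). Sntb1, a syntrophin, fell by 0.43 on the log2 scale. With MET+LEU vs. SD, 3 of the 20 rose and 4 fell, with a median of -0.023. Lama5, a laminin chain of the synaptic basal lamina, fell by 0.33 (adjusted p = 1.2e-05), Hspg2, which encodes perlecan, by 0.21 and Scn4a by a further 0.15, while Nes, the nestin intermediate filament, rose by 0.24 (adjusted p = 1.1e-04). The call of Scn4a with MET+LEU vs. SD was lost without SD replicate 1, 2 or 3 or MET+LEU replicate 4 or 6 (adjusted p = 0.0541 to 0.106). Without SD replicate 1, and likewise without MET+LEU replicate 6, 2 genes of the list fell.

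**Figure D4:**
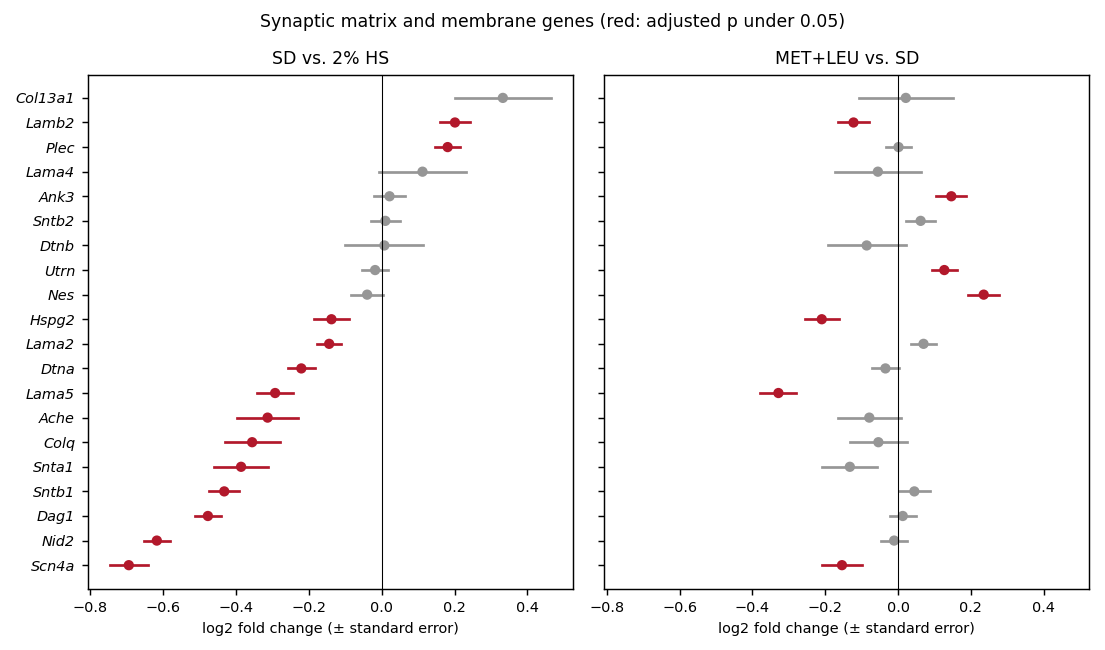
Log2 fold change (points) with its standard error (bars) of the 20 tested genes of the synaptic matrix and membrane list, with red for an adjusted p under 0.05. The SD vs. 2% HS panel has 11 red points to the left of 0 and 2 to the right, and the MET+LEU vs. SD panel has 4 and 3.

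Postsynaptic signalling and scaffold genes were split. With SD vs. 2% HS, 8 of 23 tested rose and 7 fell, with a median of 0.085. Nrg1, a neuregulin, rose by 0.58 on the log2 scale (adjusted p = 5.6e-11) and Pak1, a kinase downstream of Rac in agrin signalling, by 0.51, while Erbb3, a neuregulin receptor, fell by 0.28 and Cdk5r1 by 0.27. With MET+LEU vs. SD 2 rose and 5 fell, with a median of -0.044. Gabpa, the DNA-binding subunit of the N-box factor GABP, rose by 0.24 (adjusted p = 5.6e-04), and Dvl1, which encodes the Musk-binding protein dishevelled, fell by 0.18, with Abl2 and Crkl, a Dok7 partner, at -0.15 and -0.14. In the receptor glycosylation and assembly list, 5 of 8 rose and 2 fell with SD, led by the chaperone Hspa5 at 0.39 (adjusted p = 7.5e-11), with Gmppb at 0.34, Alg14 at 0.25 and Alg2 at -0.29. The median of this list was 0.16 with SD and -0.0070 with MET+LEU vs. SD, where 1 gene rose, the chaperone gene Canx (0.14).

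E-box factors and their Id antagonists gave 1 rise and 5 falls among 10 genes with SD vs. 2% HS. Myf6 went from 7.72 ± 1.71 to 4.67 ± 0.259 CPM (-0.73, adjusted p = 8.3e-05), Myod1 fell by 0.28 and Id2 by 0.25, while Id1 rose by 0.33. With MET+LEU vs. SD, Id2 (0.26) and Tcf4 (0.11) rose and Tcf3 fell (-0.24). The medians of this list were -0.11 and -0.048, and the second was -0.030 without SD replicate 1 and -0.028 without MET+LEU replicate 6. The call of Tcf4 was lost without SD replicate 1 or 3 or MET+LEU replicate 6 (adjusted p = 0.0543 to 0.0741). Denervation-responsive genes and regulators gave 0 rises and 3 falls among 8 with SD, with Hdac9 at -0.29 and Ncam1 at -0.17. With MET+LEU vs. SD, Gadd45a rose by 0.30 and Hdac5 fell by 0.16, and the medians were -0.067 and -0.054. Without SD replicate 1 the first median was -0.11. The call of Hdac5 was lost without SD replicate 1 or 2 or MET+LEU replicate 6 (adjusted p = 0.0566 to 0.114). That of Hdac9 was lost in 9 of the 30 fits that left out 1 library, SD replicates 1, 2 and 3, 2% HS replicates 2, 4 and 5, MET replicate 4, LEU replicate 6 and MET+LEU replicate 3 (adjusted p = 0.0502 to 0.139). Of 11 other nicotinic receptor subunits, 3 had 0 counts in every library, 7 never passed 0.310 CPM and only Chrnb2 was tested. It went from 2.05 ± 0.456 to 1.37 ± 0.327 CPM with SD (-0.59, adjusted p = 0.0385), a call lost without 2% HS replicate 3, 4, 5 or 6 or SD replicate 1, 2 or 4 (adjusted p = 0.0648 to 0.0930).

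Markers of the labelled cell type were present. Of 8 myotube markers, 1 rose and 2 fell with SD vs. 2% HS, with a median of -0.094. Without SD replicate 1, 1 rose and 4 fell, with a median of -0.12. The summed level of 8 myotube markers, all tested, was 37899 to 40852 CPM in 2% HS, 31203 to 33630 in SD, 27798 to 31440 in MET, 34536 to 36277 in LEU and 29910 to 38640 in MET+LEU. Ckm and Ttn fell with SD (-0.98 and -0.33) and Des rose (0.13), and Tnnt3, Myh8 and Myh3 rose with MET+LEU vs. SD (0.82, 0.38 and 0.36, with Myh3 at 0.21 without MET+LEU replicate 6), with Tnnt3 at 643 CPM or more in MET+LEU and at 487 CPM or less in SD. Of 6 markers of undifferentiated or cycling myoblasts, Pax7 fell with SD (-0.37), and with MET+LEU vs. SD 4 fell, led by Ccnb1 at -0.89 and with Mki67 least at -0.35. The call of Mki67 was lost without SD replicate 6 or MET+LEU replicate 3 or 5 (adjusted p = 0.0519 to 0.0675). LEU lowered Top2a and Ccnb1 vs. SD. The part of these shifts in the values of the 10 genes was not tested.

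Markers of other cells of the junction were at or near 0, with exceptions. Of 5 motor neuron markers, Chat, Slc18a3 and Mnx1 had 0 counts in every library and Isl1 stayed at or under 0.154 CPM. Slc5a7, the choline transporter, was counted in every library and rose from 2.66 ± 0.553 CPM in 2% HS to 11.3 ± 1.70 in SD (2.06 on the log2 scale, adjusted p = 3.5e-19), with 13.6 ± 1.6 in MET+LEU. Of 5 Schwann cell markers, 2 were tested, with a median of 0.24 in SD vs. 2% HS. Mbp rose (0.99), and the other did not pass the test. Without SD replicate 1, 1 rose and 1 fell, with a median of 0.14. Sox10 and S100b never exceeded 0.328 CPM. All 4 tested of 5 fibroblast markers rose with SD, led by Dpt, from 5.73 ± 0.654 to 47.8 ± 2.98 CPM, with Pdgfra least at 0.79. Their summed level was 16.2 to 18.8 CPM in 2% HS and 62.6 to 79.6 CPM in SD. Their part in the results was not tested.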

How the data were processed

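The authors extracted total RNA from C2C12 myotubes, depleted ribosomal RNA, prepared stranded libraries and sequenced 150 × 150 bp reads, and the deposited values are their raw counts of reads per gene, without normalization. The submitters' processing notes name cutadapt 1.16, STAR 2.7.6a, featureCounts 1.6.3, DESeq2 1.30.1 and the build GRCm38. The annotation release and strand setting were not given in the sources used here. Of 55487 Ensembl identifiers, 55141 matched GENCODE M21, which gave symbols, positions and exon lengths, and 0 per-sample columns were left unused.

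Groups came from the labels. Counts were analysed in R 4.3.3 with edgeR 4.0.16: genes were kept by filterByExpr (minimum count 10, minimum total 15), TMM factors scaled the libraries, and all 30 entered one quasi-likelihood model (robust) that gave each group its own mean. Contrasts were tested two-sided with Benjamini-Hochberg adjustment over 15907 genes and a threshold of 0.05. CPM are TMM-scaled. A confidence interval is the estimate and its standard error at 95%. Where a change is written as a value alone, it is a log2 fold change of this fit. Promoter letters were searched in RefSeq windows of 250 bases. The alternatives were DESeq2's size factors, upper-quartile scaling, DESeq2 1.42.0 (Wald test), limma-voom (limma 3.58.1) with sample quality weights, no filter on low counts, a fit of just the groups being compared, a block for the replicate number, and each library left out in turn. In simulated counts for SD vs. 2% HS, 200 of the 15907 genes were changed 1.5-fold, and a second filter left 15008 genes to test. edgeR recovered 129 of the 200 (64.5%) with 9 false calls. Any changed gene that the second filter removed counted as missed. Smaller changes, such as those of the 10 genes, were not simulated. No libraries were identical.

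The 10 genes and the gene lists were chosen with earlier results of these data known, so their counts are descriptive. Counts at an unadjusted p under 0.05 stand without the share of all tested genes, which was not taken. Genes named from the lists are, in SD vs. 2% HS and MET+LEU vs. SD, at most the 4 largest absolute changes past the threshold per list and the highest and lowest of a marker list. The further marker genes named in the text were chosen after their values were seen. A few genes that these rules name are not reported here.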

Additional observations from a re-analysis of the deposited data

Results flagged for a closer look

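In 50 groups of 6 libraries (10 genes in 5 conditions), a library was examined for standing far from the rest of its own group, by Dixon's criterion at a critical value of 0.625. Chance alone gives about 5% of groups, and 2 were found. Chrng in MET+LEU replicate 6 was at 293 CPM, the lowest of its group, with the next library at 360 CPM. The gap took up 0.683 of the group's range. This is the library with the high share of ribosomal RNA. Rapsn in 2% HS replicate 3 was at 117 CPM, the highest of its group, with the next at 106 CPM and a gap of 0.639 of the range. The fall of Rapsn with SD stayed past the threshold without it.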

How the results depend on the processing

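Counts below are of the 10 genes or of all genes past an adjusted p of 0.05. DESeq2's size factors left 1 of the 10 in MET+LEU vs. LEU and 5 genes in the interaction, and upper-quartile scaling left 1 and 4. Upper-quartile scaling also moved the share of higher among called genes from 63.7% to 49.8% in MET+LEU vs. MET and from 73.4% to 53.9% in MET+LEU vs. LEU. DESeq2's Wald test gave 2 of the 10 and 88 genes for MET vs. SD, 162 genes for LEU vs. SD and 19 for the interaction. limma-voom gave 6 of the 10 in SD vs. 2% HS and 108, 216 and 19 genes in these comparisons, 1857 genes for MET+LEU vs. SD and 1 of the 10 in MET+LEU vs. LEU. Without the filter on low counts the values were 0 of the 10 and 105 genes for MET, 166 genes for LEU, 1 of the 10 in MET+LEU vs. LEU and 31 genes in the interaction. A fit of only the groups compared gave 0 of the 10 for MET, 197 genes for LEU, 1 of the 10 (Dok7) and 1422 genes for MET+LEU vs. SD, 2 of the 10 and 589 genes vs. MET, 0 of the 10 and 311 genes vs. LEU, and 1 gene in the interaction. With the replicate block there were 52 genes for MET, 5 of the 10 in MET+LEU vs. MET (Chrnd and Rapsn were added, adjusted p = 0.0236 and 0.0465), 1 of the 10 vs. LEU and 17 genes in the interaction. The labels do not say whether replicate numbers pair the samples. Deviations from the group mean correlated by 0.0157 on average between same-numbered libraries and by -0.0031 between differently numbered ones. These averages show no strong shift shared by number and cannot exclude a weaker one. Leaving out 1 library gave 4 to 5 of the 10 in SD vs. 2% HS (3930 to 4873 genes), 0 to 2 in MET vs. SD (4 to 160), 0 in LEU vs. SD (43 to 269), 3 to 5 in MET+LEU vs. SD (2175 to 3159), 2 to 5 in MET+LEU vs. MET (726 to 1558), 0 to 2 in MET+LEU vs. LEU (396 to 1293) and 1 to 11 genes in the interaction. The lowest count for MET came without MET replicate 4, that for LEU without LEU replicate 4, and the highest for both without MET+LEU replicate 6. Of 2960 values of the 10 genes under these settings, 114 turned sign, 0 of them in a called value, and the largest of these had a reported size of 0.064. The causes were not tested. Chrne had the fewest counts of the 10 genes, and its intervals were the widest.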

Other observations

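For each gene, transcripts with the most similar log2 CPM over the 30 libraries are given by Pearson's r. All points share the 5 groups and their libraries, so the values are a description without a test. Rapsn lay close to Cdh15, which encodes M-cadherin (r = 0.946). Lrp4 lay closest to Dmpk (0.943) and Porcn (0.941), and Musk to Fgf11 (0.926) and Hip1 (0.912). Among the subunits, Chrnb1 lay closest to Pstpip2 (0.918) and Myom1 (0.912), Chrna1 to Lamp1 (0.879) and Pitpna (0.802), and Chrng to Rab1b (0.859) and Mybph (0.844). Chrnd lay closest to Pgm5 (0.809) and Ankrd23 (0.806), Chrne lay close to Gpx4 (0.751), Dok7 lay closest to Rgl2 (0.880) and Sh2b1 (0.877), and Agrn to Ric8a (0.855) and Dvl1 (0.820).

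Some of these values came from differences between groups. After the group means were removed, r was 0.263 between Lrp4 and Porcn and 0.472 between Musk and Fgf11, whereas it was 0.838 between Rapsn and Cdh15 and 0.878 between Chrng and Rab1b. Among the 10 genes themselves, libraries deviated together within groups for Chrng and Rapsn (r = 0.729), Chrng and Dok7 (0.727) and Chrnd and Chrne (0.712), and in opposite directions for Chrnb1 and Dok7 (-0.409) and Chrnb1 and Agrn (-0.407). SD replicate 1 and MET+LEU replicate 6 are among these libraries, and their part in the values was not tested.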
